A study of Mus musculus with 57 samples.

Results

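Srebf1 and 9 genes of hepatic fatty acid and triglyceride synthesis (Fasn, Acaca, Acly, Scd1, Elovl6, Me1, Thrsp, Pnpla3 and Gpam) were followed through 7 liver injuries in mice. The genes were taken by symbol, and all 10 were found among the 54307 Ensembl gene IDs of the count table. The table covered 57 livers, 40 from mice given a toxicant and 17 from mice given a vehicle. All mice were wild-type males of the strain C57BL/6JJcl. They were 6 weeks old, had 1 week of acclimatisation, were fasted for 12 h and were killed 24 h after dosing. By gavage, 4 mice received alpha-naphthyl isothiocyanate (ANIT), 7 received 4,4'-methylene dianiline (MDA), 6 received acetaminophen (APAP) and 5 received thioacetamide (TAA). Their controls were 13 mice given 0.5% methylcellulose by gavage. By intraperitoneal injection, 7 mice received carbon tetrachloride (CCl4) and 4 received galactosamine (GAL), against 2 mice given 0.9% saline by that route. Concanavalin A (ConA) was given to 7 mice by tail vein, against 2 mice given 0.9% saline by tail vein. The labels give a volume of 10 µL/kg for every group and no dose of any compound, and they name corn oil as a further vehicle without saying for which compound. No group here was a corn oil control, and access to food after dosing is not stated in the sources used here. Mice are named below by their group and the replicate number of their label.

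SREBP-1c, the main product of Srebf1 in liver, is a transcription factor that insulin and the oxysterol receptor LXR induce and that switches on the genes of fatty acid synthesis. ATP citrate lyase (Acly) makes cytosolic acetyl-CoA, acetyl-CoA carboxylase (Acaca) turns it into malonyl-CoA, and fatty acid synthase (Fasn) builds palmitate with NADPH to which malic enzyme (Me1) contributes. Scd1 desaturates and Elovl6 elongates the product, Gpam starts its esterification into glycerolipids, Pnpla3 encodes a lipid droplet protein, and Thrsp encodes Spot 14, a regulator of lipogenesis. In textbook physiology these genes fall with fasting and rise with refeeding. The glucose-responsive factor ChREBP (Mlxipl) acts on many of the same genes.

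The stretches of 250 bases before the start sites of Srebf1, Fasn and Pnpla3 are shown because Srebf1 is the regulator, Fasn was not called lower with ANIT and MDA where Srebf1 was, and Pnpla3 had 0 counts in all ConA mice. They are RefSeq sequences of GRCm38.p6, and each overlapped 0 bases of exons in GENCODE M21. Capitals mark a CCAAT box (CCAAT, or ATTGG on the other strand) or a GC box (GGGCGG, or CCGCCC on the other strand). RefSeq gives Srebf1 3 start sites, while the counts are per gene and pool their transcripts.
Srebf1 chr11:60222582-60222831 minus strand: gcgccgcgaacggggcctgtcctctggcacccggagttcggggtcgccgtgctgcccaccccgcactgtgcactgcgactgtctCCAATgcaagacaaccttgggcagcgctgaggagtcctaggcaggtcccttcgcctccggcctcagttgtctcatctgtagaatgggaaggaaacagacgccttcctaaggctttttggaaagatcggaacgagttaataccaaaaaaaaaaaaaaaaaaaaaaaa
Srebf1 chr11:60220628-60220877 minus strand: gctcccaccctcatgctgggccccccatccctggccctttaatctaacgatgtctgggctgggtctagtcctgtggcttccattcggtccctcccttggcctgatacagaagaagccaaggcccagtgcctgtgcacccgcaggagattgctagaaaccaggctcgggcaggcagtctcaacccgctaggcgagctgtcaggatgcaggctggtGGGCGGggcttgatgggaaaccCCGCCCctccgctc
Srebf1 chr11:60210472-60210721 minus strand: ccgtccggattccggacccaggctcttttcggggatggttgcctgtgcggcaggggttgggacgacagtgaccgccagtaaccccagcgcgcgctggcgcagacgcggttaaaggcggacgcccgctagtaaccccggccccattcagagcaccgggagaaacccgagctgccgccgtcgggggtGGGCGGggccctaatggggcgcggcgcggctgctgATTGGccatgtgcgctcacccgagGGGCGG
Fasn chr11:120824548-120824797 minus strand: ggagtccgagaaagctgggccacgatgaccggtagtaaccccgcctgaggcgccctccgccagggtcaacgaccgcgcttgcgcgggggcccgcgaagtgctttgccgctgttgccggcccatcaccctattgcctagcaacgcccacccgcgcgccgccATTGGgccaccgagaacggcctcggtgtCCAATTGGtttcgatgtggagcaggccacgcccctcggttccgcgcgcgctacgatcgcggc
Pnpla3 chr15:84167566-84167815 plus strand: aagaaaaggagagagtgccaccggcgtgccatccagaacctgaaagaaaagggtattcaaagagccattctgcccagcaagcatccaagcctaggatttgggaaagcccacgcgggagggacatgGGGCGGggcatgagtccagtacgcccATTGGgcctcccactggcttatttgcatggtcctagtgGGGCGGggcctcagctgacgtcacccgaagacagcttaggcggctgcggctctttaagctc
In the Fasn window a forward and a reverse CCAAT box overlap between positions -62 and -55 from the start site, and a further ATTGG stands at -90 to -86. Windows were found for 9 of the 10 genes, 13 windows in all. A CCAAT box on either strand was present in 7 of the 13 windows and in 33.8% of 32851 RefSeq windows of the same length. The GC box was present in 6 of 13 windows and in 32.7% of all windows. All searches, including those that follow, were for fixed letters, so elements that differ by a base were not sought. The LXR repeat in its fixed form matched 5 of 32851 windows. A count of 0 windows therefore does not show that sterol, E-box or LXR elements are absent from these stretches. The letters TCACNCCAC (a sterol regulatory element), CACGTG (an E-box) and an LXR direct repeat with a spacer of 4 bases, on both strands, were in 0 of the 13 windows and in 1.05%, 6.02% and 0.0152% of all windows.

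Estimated counts per liver totalled 13826343 to 35075809, with a median of 21532116, and 5.12% to 39.3% of them came from mitochondrial genes. Levels are library-scaled counts (CPM) after TMM scaling over the 57 livers. The deposited values look corrected for transcript length, although no label says so, and levels of different genes are comparable only if they are. The 7 hepatocyte markers, albumin among them, were detected in every group and summed to 31870 to 146400 CPM. The 6 adipocyte markers summed to at most 7.52 CPM in any liver. Between vehicle groups, 0 of the 10 genes passed the edgeR test in either comparison with the gavage controls. The background was 0.0131% of genes for intraperitoneal and 0.0263% for intravenous saline. At an unadjusted p under 0.05 the counts were 1 and 0 of 10, and DESeq2 called 0 in both. Each saline group held 2 mice, and the intravenous pair differed: mouse 7 had 378 CPM of Srebf1 and 572 of Fasn, while mouse 8 had 131 and 123.

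Against the vehicle of the same route, genes among the 10 fell with every compound, and edgeR called none of them higher. DESeq2 called Elovl6 (0.87, adjusted p = 0.0205) and Pnpla3 (1.59, adjusted p = 0.037) higher with CCl4. A gene was called at an edgeR quasi-likelihood adjusted p under 0.05 (Benjamini-Hochberg over all genes tested). All 10 genes were lower with TAA and with ConA, 9 with APAP, 7 each with ANIT, MDA and GAL, and 5 with CCl4. The share of all genes called lower was 24.0% with TAA, 17.3% with ConA, 14.6% with APAP, 14.2% with ANIT, 16.4% with MDA, 15.7% with GAL and 15.6% with CCl4. The share called higher was 26.4% with TAA, 16.8% with ConA, 17.3% with APAP, 14.0% with ANIT, 17.4% with MDA, 12.8% with GAL and 18.0% with CCl4. The median log2 fold change of the 10 genes was -2.40 with TAA, -2.67 with ConA, -2.05 with APAP, -2.02 with GAL, -1.60 with ANIT, -1.02 with MDA and -0.74 with CCl4. Over all genes tested the medians lay between -0.01 and 0.10.

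Srebf1, Acly and Thrsp were the 3 genes called lower with all 7 compounds against the route vehicle. With the 17 vehicle mice pooled as 1 reference, Scd1 and Gpam joined them. The Scd1 call with CCl4 there (-0.61, edgeR adjusted p = 0.0467) was lost without the filter on low counts, with RLE size factors or plain library totals in place of TMM, in a single fit over all livers, and with a covariate for the range of the label numbers (edgeR adjusted p between 0.0513 and 0.863). Gpam lost its call there with ANIT under that covariate (-0.65, edgeR adjusted p = 0.0747) and with APAP under library totals (-0.89, edgeR adjusted p = 0.0619). Scd1 with APAP lost its call without the filter (-1.45, edgeR adjusted p = 0.05007). Under a block for the replicate number, Scd1 with CCl4 and Gpam with ANIT and APAP were not called (edgeR adjusted p = 0.34, 0.171 and 0.1025). Against all 17 vehicle mice 10 of 10 genes were lower with APAP, TAA, GAL and ConA, where 15.3%, 24.5%, 27.5% and 33.7% of all genes were. ANIT, MDA and CCl4 each gave 7 of 10, where 14.5%, 17.1% and 27.2% of all genes were lower. The tenth call with GAL was Pnpla3 (-2.34, edgeR adjusted p = 0.0408). It was lost without any 1 of the 4 GAL mice (edgeR adjusted p between 0.0521 and 0.122), with library totals (0.14), without the filter on low values (0.0571) and with a mean of at least 5 CPM required (0.0513). The 2 sets of comparisons share control mice. Without saline mouse 8, which leaves 1 control, 1 of 10 genes (Srebf1) stayed called with CCl4. Among the 4 lost calls the log2 fold change moved from -0.78 to -0.71 for Acly and from -2.0 to -1.92 for Thrsp, and from -0.80 to -0.41 for Acaca and -0.93 to -0.61 for Gpam. A single fit over all 57 livers also called 1. Leaving out intravenous saline mouse 7 left 7 of 10 genes called with ConA.

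**Figure D1:**
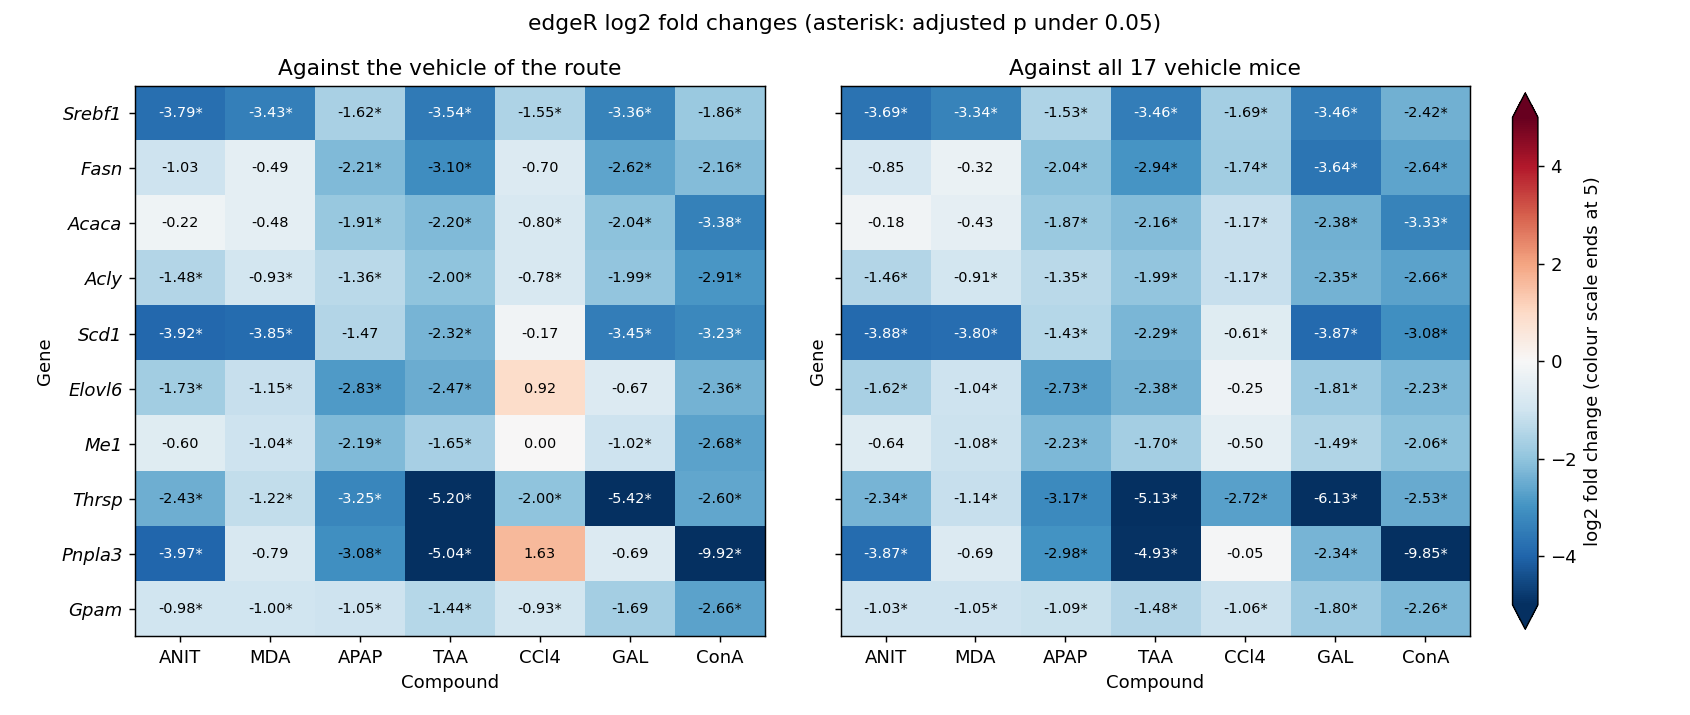
Log2 fold changes of the 10 genes (rows) with each compound (columns) against the vehicle of its route (left) and against all 17 vehicle mice (right). An asterisk marks an edgeR adjusted p under 0.05. Srebf1 is lower in all 14 columns, while the Fasn and Acaca cells with ANIT and MDA carry no asterisk and the Elovl6 and Pnpla3 cells with CCl4 on the left are above 0 without an asterisk.

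The regulator Srebf1 stood at 260 to 604 CPM in the gavage controls, with a median of 430. In the ANIT mice it was 46.1, 26.7, 33.5 and 16.3 CPM, and in the TAA mice 31.5, 36.2, 33.2, 43.7 and 32.6 CPM. With MDA the 7 livers ran from 23.7 to 53.2 CPM with a median of 38.0. Every mouse of these 3 groups was below every gavage control. The change was 13.8-fold with ANIT (log2 fold change -3.79, SE 0.30, edgeR adjusted p = 2.56e-07), 11.7-fold with TAA (-3.54, SE 0.21, edgeR adjusted p = 9.63e-11) and 10.8-fold with MDA (-3.43, SE 0.20, edgeR adjusted p = 1.79e-10).

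APAP mice spread more widely in Srebf1, from 45.4 to 300 CPM with a median of 110. Mice 8 and 11 had 45.4 and 49.8 CPM, and mice 1, 2, 4 and 6 had 77.8, 300, 142 and 202 CPM. Mouse 2 lay within the range of the controls. As a group they were 3.07-fold lower (log2 fold change -1.62, SE 0.33, edgeR adjusted p = 0.000929).

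After the injected compounds Srebf1 was 66.6 to 153 CPM (median 129) with CCl4, below the saline mice at 388 and 350 CPM. It was 88.2, 19.9, 16.1 and 28.2 CPM with GAL, and 38.4 to 114 CPM (median 67.3) with ConA. No treated mouse reached its route's controls. The fold was 2.94 for CCl4 (log2 fold change -1.55, SE 0.24, edgeR adjusted p = 0.000895), 10.2 for GAL (-3.36, SE 0.66, edgeR adjusted p = 0.0142) and 3.63 for ConA (-1.86, SE 0.42, edgeR adjusted p = 0.00754). Without either saline mouse the GAL value stayed near its size but was not called (-3.26, edgeR adjusted p = 0.0692 without mouse 7 and -3.44, edgeR adjusted p = 0.0685 without mouse 8). Without intravenous saline mouse 7 the ConA value was -0.87 (edgeR adjusted p = 0.234). Against all 17 vehicle mice the values were -3.46 for GAL and -2.42 for ConA, both called. In order of mean level, ANIT (30.7 ± 12.5 CPM, SD, n = 4), TAA (35.4 ± 4.9, n = 5), GAL (38.1 ± 33.8, n = 4) and MDA (38.9 ± 9.9, n = 7) came lowest. Their ranges overlapped, and the ranges of ConA, CCl4 and APAP overlapped with each other too.

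**Figure D2:**
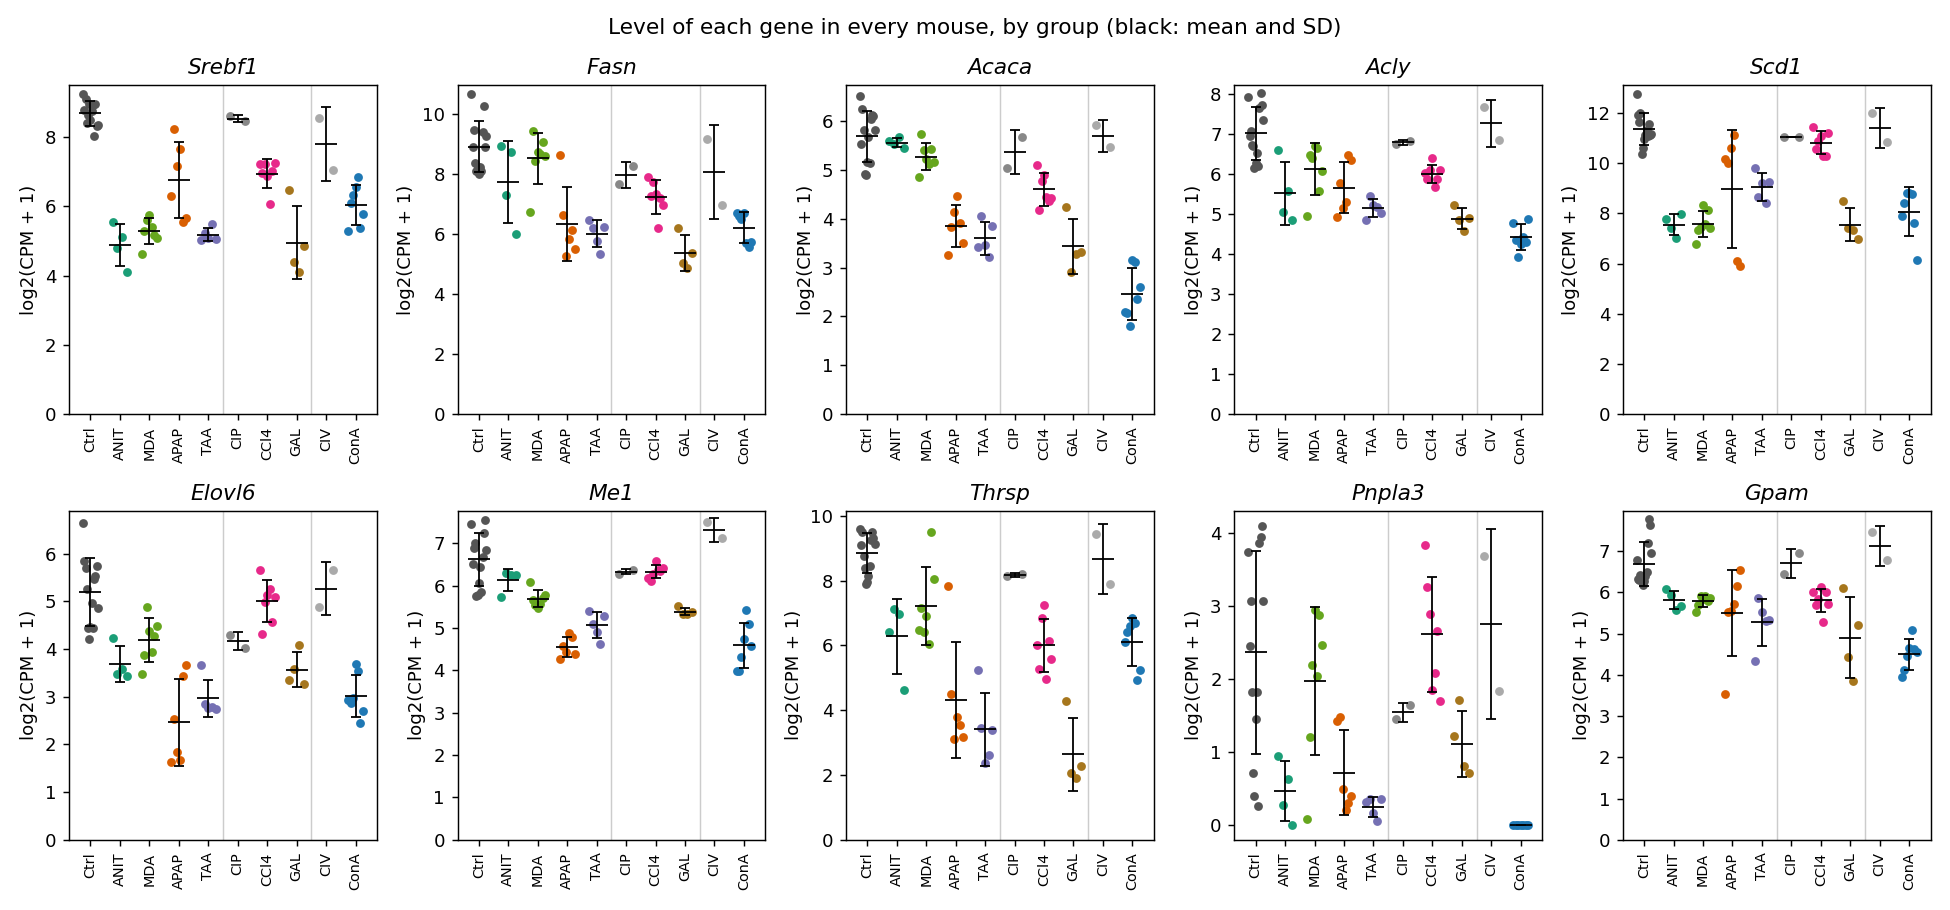
Level of each gene as log2(CPM + 1) in every mouse (1 point), by group, with the group mean and SD in black. Vertical lines separate the gavage, intraperitoneal and intravenous routes, with Ctrl, CIP and CIV as their vehicle groups. Mean Srebf1 is below the route controls in all treated groups, Fasn and Acaca of ANIT and MDA overlap the controls, and Pnpla3 is at 0 in the 7 ConA mice.

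Fasn and Acaca, the enzymes that make palmitate, did not pass the test with ANIT and MDA. Fasn was 254 to 1624 CPM (median 478) in the gavage controls. The ANIT mice had 486, 157, 421 and 63.3 CPM, and the MDA mice 105 to 689 CPM with a median of 399.5. ANIT mice 2 and 4 and MDA mouse 1, at 105 CPM, lay below every control, and the others did not. The log2 fold change of Fasn was -1.03 with ANIT (95% interval -2.20 to 0.15, edgeR adjusted p = 0.184) and -0.49 with MDA (-1.29 to 0.31, edgeR adjusted p = 0.347). In the TAA mice Fasn was 87.7, 72.7, 53.7, 39.4 and 74.4 CPM, below every control, and 8.61-fold lower (log2 fold change -3.10, SE 0.49, edgeR adjusted p = 3.23e-05). APAP mice held 37.3 to 399 CPM of Fasn with a median of 62.9, where mouse 1 alone overlapped the controls, and the group was 4.63-fold lower (-2.21, SE 0.57, edgeR adjusted p = 0.00583).

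With GAL, Fasn was 73.2, 31.6, 28.0 and 40.6 CPM against 201 and 305 CPM in the intraperitoneal saline mice, which was 6.15-fold lower (log2 fold change -2.62, SE 0.39, edgeR adjusted p = 0.00632). CCl4 mice had 72.0 to 238 CPM of Fasn (median 154), overlapped their controls and did not pass the test (-0.70, 95% interval -1.50 to 0.11, edgeR adjusted p = 0.168). ConA mice had 46.0 to 104 CPM (median 89.4), all below both intravenous saline mice (-2.16, SE 0.47, edgeR adjusted p = 0.00566). Without saline mouse 7 that value was -0.64 (edgeR adjusted p = 0.346). Against all 17 vehicle mice it was -2.64, and Fasn with CCl4 was -1.74, both called lower.

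Acaca stood at 28.6 to 89.8 CPM (median 55.0) in the gavage controls. It was 47.1, 44.9, 49.8 and 42.4 CPM in the ANIT mice and 28.0 to 52.0 CPM (median 36.1) with MDA. Both groups lay within or at the edge of the control range, with log2 fold changes of -0.22 (95% interval -0.77 to 0.32, edgeR adjusted p = 0.562) and -0.48 (-0.92 to -0.05, edgeR adjusted p = 0.0806). With TAA it was 9.69, 15.6, 10.0, 8.25 and 13.4 CPM, and with APAP 8.55 to 21.1 CPM (median 13.7). No mouse of these 2 groups reached the controls, and the log2 fold changes were -2.20 (SE 0.28, edgeR adjusted p = 2.90e-06) and -1.91 (SE 0.26, edgeR adjusted p = 2.13e-05). ConA mice had 2.51 to 7.91 CPM (median 4.09), against 59.4 and 43.0 in their controls. This was 10.4-fold lower (log2 fold change -3.38, SE 0.37, edgeR adjusted p = 0.000147), a gap wider than the spread in either group. GAL and CCl4 gave -2.04 (edgeR adjusted p = 0.0144) and -0.80 (edgeR adjusted p = 0.0406). Without intraperitoneal saline mouse 8 both calls were lost, at edgeR adjusted p = 0.102 and 0.455. The CCl4 call was also lost without CCl4 mouse 5, 6, 10 or 12 (edgeR adjusted p between 0.0557 and 0.066).

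Acly, the source of cytosolic acetyl-CoA, passed the test with every compound. It was 69.5 to 259 CPM (median 122) in the gavage controls and 27.9, 42.5, 36.2, 35.3 and 31.7 CPM in the TAA mice, which lay below all controls (log2 fold change -2.0, SE 0.33, edgeR adjusted p = 4.99e-05). The log2 fold changes with ANIT, APAP and MDA were -1.48, -1.36 and -0.93, and some mice of each group overlapped the controls. ConA gave -2.91 (14.2 to 28.3 CPM, median 19.6, against 203 and 115 in the saline mice, edgeR adjusted p = 7.02e-05). GAL gave -1.99 and CCl4 -0.78, with no overlap with the intraperitoneal saline mice at 107 and 113 CPM. ANIT lost the call without ANIT mouse 2 (edgeR adjusted p = 0.0503), and CCl4 lost it without saline mouse 8 (edgeR adjusted p = 0.057).

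Me1, which supplies NADPH, was lower in 5 of the 7 route comparisons. It stood at 53.3 to 186 CPM (median 101) in the gavage controls and at 18.2 to 28.5 CPM (median 21.7) with APAP, below all of them (log2 fold change -2.19, SE 0.28, edgeR adjusted p = 1.13e-05). TAA gave -1.65, MDA -1.04, GAL -1.02 and ConA -2.68, all called. ANIT mice had 52.4, 77.7, 75.6 and 74.9 CPM, within or just under the control range (-0.60, edgeR adjusted p = 0.161). CCl4 mice had 68.2 to 95.2 CPM (median 81.0) against 76.9 and 81.6, with a log2 fold change of 0.00 (95% interval -0.28 to 0.28, edgeR adjusted p = 0.997).

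Thrsp, which encodes Spot 14, fell most with TAA and GAL. The gavage controls held 238 to 773 CPM (median 541), and the TAA mice 36.5, 9.86, 4.18, 5.13 and 9.55 CPM. This was 36.8-fold lower (log2 fold change -5.20, SE 0.57, edgeR adjusted p = 3.63e-07). GAL mice had 18.5, 3.17, 2.77 and 3.83 CPM against 279 and 296 in the saline mice, 43.0-fold lower (-5.42, SE 0.83, edgeR adjusted p = 0.00668). APAP mice had 7.64 to 227 CPM with a median of 11.7, and mouse 1 alone was above 22 CPM (-3.25, SE 0.72, edgeR adjusted p = 0.0019). ANIT, MDA, CCl4 and ConA gave -2.43, -1.22, -2.0 and -2.60. In the MDA group mouse 8 had 719 CPM and mouse 12 had 264 CPM, both within the range of the controls, while the others had 64.6 to 141 CPM. The MDA call was lost without any 1 of mice 1, 2, 3, 4 or 7 (edgeR adjusted p between 0.0524 and 0.0626) and in a single fit over all livers (edgeR adjusted p = 0.106). It was lost for CCl4 without either saline mouse (0.05002 and 0.077), and for ConA without saline mouse 7 (edgeR adjusted p = 0.0655).

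Scd1, the delta-9 desaturase, had the highest CPM of the 10 genes in the controls and split the compounds differently from Fasn. The gavage controls held 1327 to 7045 CPM (median 2302). ANIT mice had 218, 168, 129 and 252 CPM, and MDA mice 110 to 322 CPM (median 173). Both groups were far below all controls, by 15.2-fold (log2 fold change -3.92, SE 0.43, edgeR adjusted p = 6.05e-06) and 14.4-fold (-3.85, SE 0.33, edgeR adjusted p = 4.88e-08). TAA mice had 897, 400, 588, 338 and 605 CPM, a smaller fall without overlap (-2.32, SE 0.37, edgeR adjusted p = 3.02e-05). GAL gave -3.45 and ConA -3.23, both called and without overlap. CCl4 mice had 1248 to 2789 CPM (median 1895) around their controls at 2129 and 2114 (-0.17, 95% interval -0.85 to 0.51, edgeR adjusted p = 0.703).

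Within the APAP group Scd1 fell apart into distinct levels. Mice 8 and 11 had 68.1 and 58.2 CPM, while mice 1, 2, 4 and 6 had 1145, 1035, 1581 and 2255 CPM. Mice 4 and 6 lay within the control range, and the other 4 were below it. The group as a whole did not pass the test against the gavage controls (log2 fold change -1.47, 95% interval -2.67 to -0.27, edgeR adjusted p = 0.0565). Leaving out APAP mouse 6 brought it past the threshold (-1.86, edgeR adjusted p = 0.0271), as did DESeq2 (-1.48, adjusted p = 0.0158) and pooling all vehicles (-1.43).

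Elovl6, which extends palmitate to stearate, was 17.4 to 99.4 CPM (median 37.5) in the gavage controls. APAP mice had 2.08 to 11.6 CPM (median 3.69), below all of them (log2 fold change -2.83, SE 0.46, edgeR adjusted p = 0.000118), here with mice 8 and 11 as the highest of the group. TAA gave -2.47, ANIT -1.73, MDA -1.15 and ConA -2.36, all called, and GAL -0.67, which did not pass the test (edgeR adjusted p = 0.142) but did without GAL mouse 7 (-0.89, edgeR adjusted p = 0.0445). CCl4 mice had 18.9 to 49.4 CPM (median 33.3), all above the saline mice at 18.8 and 15.4 CPM. That difference did not pass the test (0.92, 95% interval 0.17 to 1.67, edgeR adjusted p = 0.0602), though it did without CCl4 mouse 5 or 11 (edgeR adjusted p = 0.0272 and 0.0397). Those 2 saline mice were at or below the lower end of the gavage controls, and against all 17 vehicle mice the value with CCl4 was -0.25, not called.

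The acyltransferase Gpam was 71.4 to 217 CPM (median 85.0) in the gavage controls. It moved least between compounds given by gavage: the log2 fold changes were -0.98 with ANIT, -1.0 with MDA, -1.05 with APAP and -1.44 with TAA, all called. ANIT mice had 66.6, 59.9, 47.0 and 49.9 CPM, and MDA mice 45.0 to 59.3 CPM (median 56.3), all below the controls. ConA mice had 14.3 to 33.2 CPM (median 22.6), against 176 and 109 in the saline mice (-2.66, SE 0.27, edgeR adjusted p = 0.000108). GAL mice had 67.9, 20.6, 13.5 and 36.1 CPM, below the saline mice at 86.7 and 124, without passing the test (-1.69, edgeR adjusted p = 0.072). Without GAL mouse 2 it was -2.23 (edgeR adjusted p = 0.00904). The ANIT call was lost without ANIT mouse 3 or 4 (edgeR adjusted p = 0.0718 and 0.0562), and the CCl4 call (-0.93) without saline mouse 8 (edgeR adjusted p = 0.131).

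Pnpla3 was low throughout and varied most among controls, from 0.192 to 16.2 CPM (median 4.49) in the gavage group. All 7 ConA mice were at 0 estimated counts, against 11.8 and 2.56 CPM in the intravenous saline mice. With a floor of 3 estimated counts per library, which is at most 0.35 CPM in these mice, Pnpla3 was at least 20.5-fold lower than the mean of its controls and at least 17.2-fold lower than all vehicles. Against saline mouse 8 alone, without mouse 7, a comparison chosen after seeing the data, the bound was 7.31-fold. The floor takes 1 estimated count as 1 read, so these bounds are approximate if the values are length-corrected. TAA mice had 0.249, 0.278, 0.12, 0.0347 and 0.283 CPM, overlapping the lowest controls (log2 fold change -5.04, SE 1.08, edgeR adjusted p = 0.000642). ANIT mice had 0.926, 0.208, 0.548 and 0 CPM (-3.97, SE 1.20, edgeR adjusted p = 0.0193), a call lost without ANIT mouse 2, 3 or 4 (edgeR adjusted p between 0.0553 and 0.0622). MDA mice kept 0.0619 to 6.68 CPM (median 3.57), within the control range but for mouse 1 (-0.79, edgeR adjusted p = 0.417). CCl4 mice had 2.25 to 13.3 CPM (median 5.33), all above the 2 saline mice at 1.73 and 2.11, without passing the test (1.63, edgeR adjusted p = 0.110). They lay within the range of the gavage controls, and against all 17 vehicle mice the value was -0.05, not called.

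The size of these falls depends on the scaling where RNA content shifts. With plain library totals in place of TMM, the median of all genes moved by -0.22 with ANIT, 0.155 with APAP, 0.434 with CCl4, 0.762 with GAL and -0.588 with ConA (log2). Under that scaling Elovl6 (1.33, edgeR adjusted p = 0.00933) and Pnpla3 (2.02, edgeR adjusted p = 0.0345) were called higher with CCl4, and Acaca, Acly and Gpam lost their calls there. Gpam lost its call with APAP (-0.83, edgeR adjusted p = 0.111), and Acaca became called lower with MDA (-0.54, edgeR adjusted p = 0.0467). With GAL, Acaca (-1.23) and Me1 (-0.25) lost theirs, and Elovl6 and Pnpla3, called under neither scaling, changed sign (0.07 and 0.09). CCl4 and GAL were also the groups with the lowest hepatocyte marker sums under TMM scaling. The 7 markers summed to 32650 to 40580 CPM with CCl4 and 31870 to 39570 CPM with GAL, against 68280 and 76470 CPM in the saline mice. Called lower were 7 of 7 with CCl4 and 6 of 7 with GAL, where 15.6% and 15.7% of all genes were. Over the alternatives run both counts ranged from 4 to 7. The lower counts were 3 with MDA and TAA, 2 with APAP and 1 with ANIT and ConA. Sums with library totals are not given here. The part of hepatocyte transcripts in the falls of the 10 genes was not tested. In bulk tissue fewer cells of a type and less RNA per cell cannot be told apart. The 6 neutrophil markers summed to 161 to 841 CPM with TAA and 124 to 286 CPM with ConA, against 2.07 to 61.1 CPM in the gavage and 7.67 to 8.89 CPM in the intravenous controls. The neutrophil sums were also above the intraperitoneal saline mice (5.13 and 5.58 CPM) with CCl4 (10.6 to 76.6 CPM) and GAL (25.9 to 41.3 CPM). The 6 Kupffer cell markers fell to 25.7 to 51.5 CPM with ConA from 291 and 301 CPM. With ConA the 6 monocyte markers summed to 207.8 to 439.5 CPM, against 112.3 and 114.1 CPM. The 6 cholangiocyte markers summed there to 91.2 to 202 CPM, against 26.5 and 60.3 CPM. Mitochondrial genes took 14.6% to 39.3% (median 24.4%) of the counts with ConA, against 6.8% and 25.4% in the intravenous saline mice. Their share was 9.4% to 14.5% with CCl4 and 9.5% to 20.1% with GAL, all above the intraperitoneal saline mice at 9.2% and 5.1%. The part of these cells and of the mitochondrial share in the results was not tested.

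The ratio of Fasn to Srebf1 within a liver, a measure chosen after its values were seen and given without a test, does not depend on the scaling. It was 0.566 to 2.69 (median 1.09) in the gavage controls, 3.88 to 12.5 (median 8.21) with ANIT and 4.45 to 18.1 (median 9.59) with MDA. No mouse of these 2 groups overlapped the controls. The medians were 2.01 with TAA, 0.611 with APAP, 1.25 with CCl4, 1.52 with GAL and 1.13 with ConA, where 1 mouse (APAP mouse 1, at 5.13) exceeded 3. The ratio of Scd1 to Srebf1 was 3.17 to 12.4 (median 6.02) in the gavage controls, 3.85 to 15.5 (median 5.52) with ANIT and 3.59 to 8.01 (median 4.66) with MDA. It was 7.75 to 28.5 (median 17.7) with TAA and 1.17 to 14.7 (median 7.29) with APAP, and all 4 groups overlapped the gavage controls. CCl4 mice had 9.85 to 18.8 (median 15.5), above the intraperitoneal saline mice at 5.48 and 6.04, and the intravenous saline mice had 10.8 and 14.3.

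**Figure D3:**
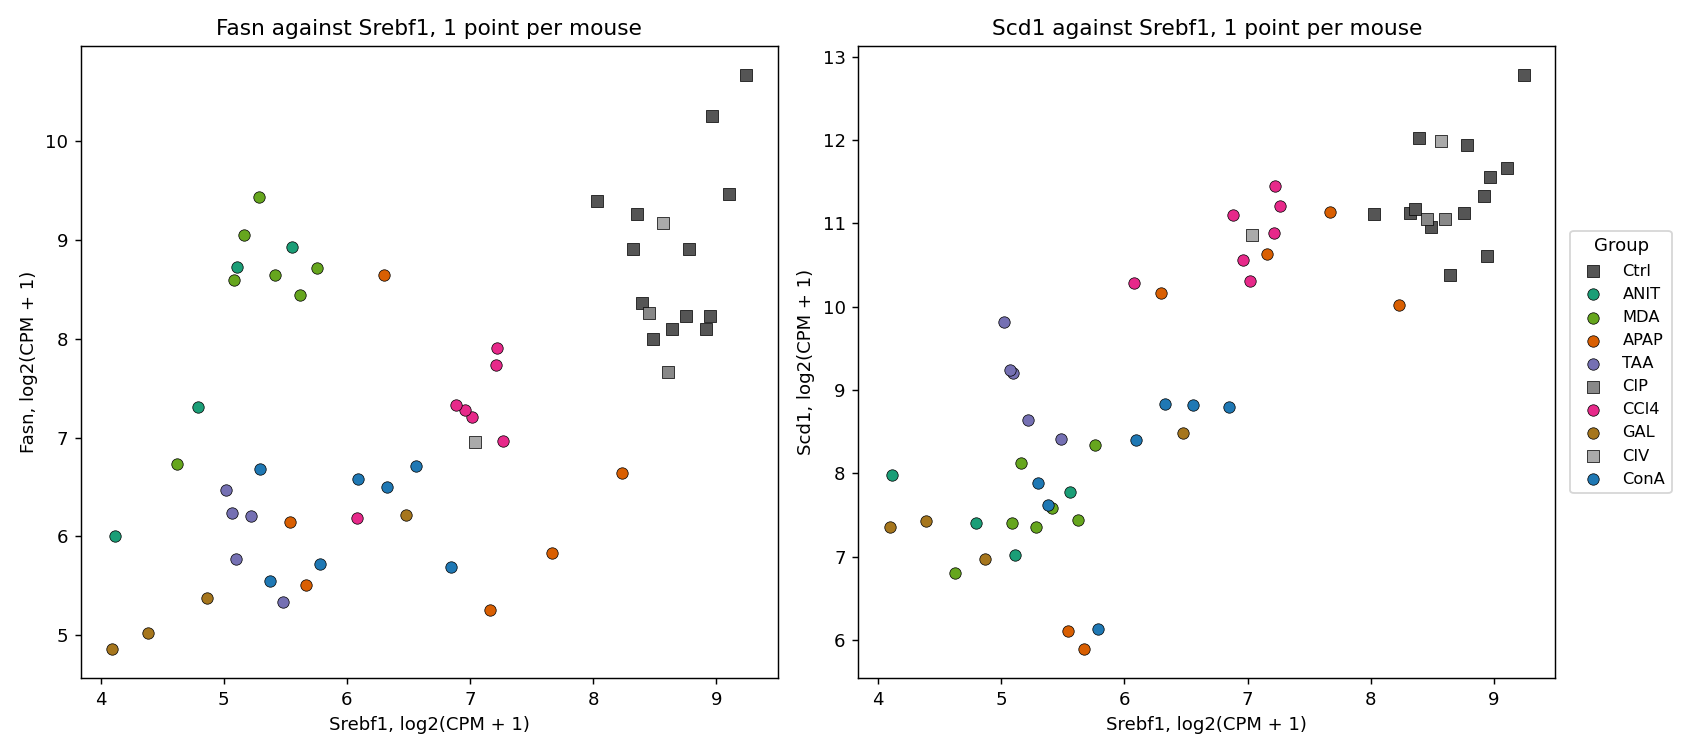
Fasn (left) and Scd1 (right) against Srebf1, all as log2(CPM + 1), 1 point per mouse, squares for vehicle groups and circles for compounds. On the left 6 of the 7 MDA mice and 2 of the 4 ANIT mice stand among the Fasn levels of the gavage controls at lower Srebf1. On the right the same mice lie at low Scd1, and TAA mice stand above them at like Srebf1.

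Direct comparisons of compounds given by the same route bore on these contrasts with a test. Doses are not given in the labels, so the compounds are compared as administered. Srebf1 did not pass the test between MDA and TAA (log2 fold change 0.12, 95% interval -0.28 to 0.51, edgeR adjusted p = 0.67), while 8 of the 10 genes did, where 30.0% of all genes were called. Fasn was higher with MDA by 2.63 (SE 0.38, edgeR adjusted p = 0.000207), Thrsp by 4.01 (SE 0.80, edgeR adjusted p = 0.002), Pnpla3 by 4.24 and Acaca by 1.73. Elovl6, Acly and Me1 were higher by 1.34, 1.07 and 0.62, and Me1 lost its call with library totals (edgeR adjusted p = 0.0684). Scd1 alone was lower with MDA (-1.51, SE 0.28, edgeR adjusted p = 0.00132). ANIT differed from TAA in 5 of 9 genes tested (26.2% of all genes), with Thrsp higher by 2.78, Fasn by 2.08, Acaca by 1.99 and Me1 by 1.05, and Scd1 lower (-1.59). The Srebf1 difference was -0.23 (95% interval -0.83 to 0.37, edgeR adjusted p = 0.573). With a covariate for the range of the label numbers, described with the gavage controls, Acaca and Scd1 were called and the other 3 were not.

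Between ANIT and MDA, 0 of the 10 genes passed the test, and edgeR called 0.0% of 13360 genes. At an unadjusted p under 0.05, 2 of the 10 genes (Me1 and Pnpla3) differed, and DESeq2 called 1 of 10. The interval for Srebf1 was -0.95 to 0.25 and that for Fasn -1.70 to 0.62. APAP differed from MDA in 5 of 10 genes (9.43% of all genes). Srebf1 and Scd1 were higher with APAP by 1.83 (edgeR adjusted p = 0.0113) and 2.38 (edgeR adjusted p = 0.0393), and Acaca, Elovl6 and Me1 were lower, at -1.42, -1.67 and -1.14. The Scd1 call was lost with the covariate (2.36, edgeR adjusted p = 0.05) and without the filter on low values (edgeR adjusted p = 0.0694). With library totals Elovl6 lost its call (-1.43, edgeR adjusted p = 0.084) and Fasn was called lower with APAP (-1.75, edgeR adjusted p = 0.0332). Against ANIT the called genes were 3 of 10 (5.98% of all genes): Acaca and Me1 were higher with ANIT by 1.66 and 1.56, and Srebf1 was lower (-2.19, edgeR adjusted p = 0.0498). That Srebf1 call was lost without any 1 ANIT mouse, with the covariate (edgeR adjusted p = 0.0848), without the filter (edgeR adjusted p = 0.0831) and with RLE (edgeR adjusted p = 0.0514). APAP and TAA differed in Srebf1 alone of 9 genes tested (2.62% of all genes), by 1.95 (edgeR adjusted p = 0.0487), a call lost without any 1 TAA mouse, with the covariate (edgeR adjusted p = 0.0756), without the filter (edgeR adjusted p = 0.0812) and with library totals (edgeR adjusted p = 0.0549). CCl4 was higher than GAL in 9 of 10 genes (42.5% of all genes), by 0.93 for Me1 to 3.34 for Thrsp, with Scd1 at 3.19 and Srebf1 at 1.71. Gpam did not pass (0.68, edgeR adjusted p = 0.135), but did without GAL mouse 2 (1.22, edgeR adjusted p = 0.00383), when all 10 genes were called.

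The 13 gavage controls are described here by the replicate number of the label, without a test. Mice 7 to 12 had 254 to 299 CPM of Fasn, mice 1 to 4 had 327 to 1624 and mice 15 to 18 had 478 to 1219. Thrsp was 238 to 345 CPM in mice 7 to 12 and 427 to 773 CPM in the others. Pnpla3 was 0.192 to 2.54 CPM in mice 7 to 12, 2.54 to 12.4 CPM in mice 1 to 4 and 7.39 to 16.2 CPM in mice 15 to 18. For Srebf1 the ranges were 336 to 604 CPM, 358 to 492 CPM and 260 to 500 CPM for mice 1 to 4, 7 to 12 and 15 to 18, which overlap. The labels do not say what the numbers stand for, and the replicate-number ranges used here (1 to 4, 5 to 12 and 13 to 18) were drawn from gaps in the numbering.

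**Figure D4:**
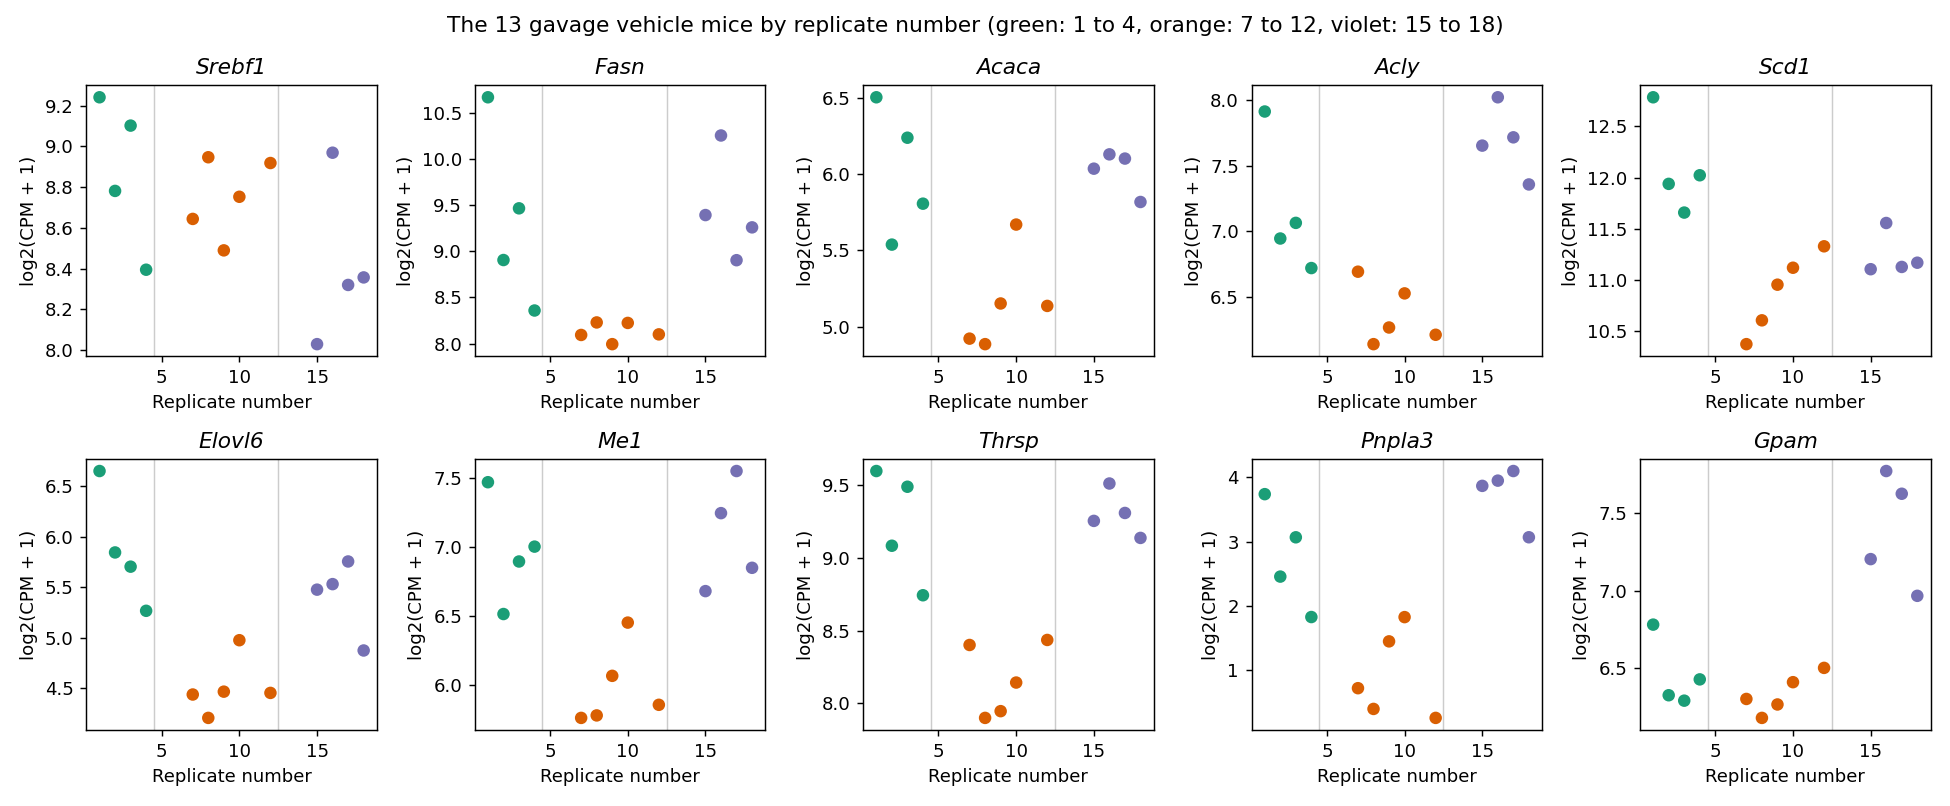
The 10 genes in the 13 gavage controls, log2(CPM + 1) against the replicate number of the label. Mice 7 to 12 are lowest in Fasn, Acly, Elovl6, Thrsp and Pnpla3 or share the lowest levels, whereas the Srebf1 points of the 3 ranges overlap.

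With the range as a covariate Srebf1 was -3.98 with ANIT, -3.56 with MDA, -1.79 with APAP and -3.63 with TAA, all called. MDA then had 5 of 10 genes called, with Acly (-0.60, edgeR adjusted p = 0.0652) and Thrsp (-1.07, edgeR adjusted p = 0.0864) lost and Pnpla3 at 0.47 (edgeR adjusted p = 0.639). Fasn with ANIT was -1.47 and was not called (edgeR adjusted p = 0.0696). Me1 became called with ANIT (-0.87, edgeR adjusted p = 0.0125) and Scd1 with APAP (-1.53, edgeR adjusted p = 0.0499), while Gpam with APAP was lost (-0.70, edgeR adjusted p = 0.0599).

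Across these 13 mice, Srebf1 was correlated with none of the other 9 genes at a Benjamini-Hochberg adjusted permutation p under 0.05 over the 9 relations, and no relation reached an unadjusted p under 0.05. Pearson's r ranged from -0.279 (Gpam) to 0.389 (Scd1, permutation p = 0.191, adjusted permutation p = 0.924, Spearman's rho 0.396, permutation p = 0.181). For Fasn it was 0.306 (permutation p = 0.309, adjusted permutation p = 0.924, rho 0.313, permutation p = 0.298). Without the 2 mice farthest from the median of Srebf1, r was 0.0738 for Scd1 and 0.247 for Fasn. Taken as deviations from the mean of each range of numbers, r was positive for all 9 genes and highest for Fasn (0.795, exact permutation p = 0.0106) and Thrsp (0.676, exact permutation p = 0.0203). These two-sided tests exchanged Srebf1 values among the mice of a range only and were chosen after seeing the data. After Benjamini-Hochberg adjustment over the 9 relations, both stood at an adjusted exact permutation p = 0.0915, and the other 7 at 0.348 to 0.4. With library totals Fasn was at 0.683 (adjusted exact permutation p = 0.209) and Thrsp at 0.736 (adjusted exact permutation p = 0.0849). Each range holds 4 or 5 mice, under the 6 needed here for an r of its own.

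Of the other genes of fatty acid synthesis and desaturation, more were called lower than higher in every route comparison, while genes of cholesterol synthesis moved in opposite directions between compounds. Of 19 further genes of fatty acid synthesis and desaturation, 10 (APAP) to 14 (GAL) were called lower in each route comparison and at most 1 higher, where 14.2% to 24.0% of all genes were lower. The median log2 fold change of the list was -0.65 with ANIT, -0.95 with APAP, -0.75 with MDA, -0.86 with TAA, -0.89 with CCl4, -2.31 with GAL and -1.37 with ConA. Acacb, the mitochondrial acetyl-CoA carboxylase, stood at a log2 fold change of -1.82 with ANIT, -2.20 with MDA, -2.67 with APAP, -2.68 with TAA and -4.33 with GAL. The elongase Elovl3 stood at -3.22 with ANIT, -4.16 with APAP, -3.53 with CCl4, -5.28 with GAL and -5.50 with ConA. Its CCl4 call was lost without saline mouse 7 (edgeR adjusted p = 0.0746). Acss2, which makes acetyl-CoA from acetate, stood at -3.27 with TAA and -3.67 with ConA. Mid1ip1, a partner of Spot 14, stood at -2.71 with ANIT, -1.84 with MDA and -3.05 with ConA, the last lost without saline mouse 7 (-1.28, edgeR adjusted p = 0.0996).

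Of 16 genes of cholesterol synthesis and uptake, which SREBP-2 (Srebf2) controls, 12 were higher with MDA and 1 lower, and 7 were higher with ANIT and 1 lower, where 17.4% and 14.0% of all genes were higher. Sqle, the squalene epoxidase, rose by 2.92 with MDA (71.4 against 9.41 CPM, SE 0.505, edgeR adjusted p = 0.000144) and by 2.12 with ANIT (40.8 CPM, SE 0.663, edgeR adjusted p = 0.0234), and Srebf2 itself by 1.03 with MDA. The ANIT count fell to 1 with library totals, 3 with the range covariate or no filter, 4 in a single fit over all livers, and 2 without ANIT mouse 1 or 3. Sqle with ANIT was not called without mouse 1 (1.21, edgeR adjusted p = 0.228) or mouse 3 (edgeR adjusted p = 0.0893). In the other groups 8 genes were lower with TAA, 9 with CCl4, 12 with GAL, 13 with ConA and 3 with APAP. The share of all genes called lower was 24.0%, 15.6%, 15.7%, 17.3% and 14.6% in that order, and the count with APAP is near its share. With TAA and CCl4 1 gene each was higher. The median of the list with APAP was positive, at 0.34. With library totals 0 were lower with APAP and 3 with CCl4, and without intraperitoneal saline mouse 8 the counts were 3 with CCl4 and 7 with GAL. Fdps, which makes farnesyl diphosphate, was -1.91 with TAA, -4.39 with GAL and -3.58 with ConA. Insig2, which holds SREBP precursors in the endoplasmic reticulum, was higher with MDA (1.70) and ANIT (1.02) and lower with GAL (-2.98), CCl4 (-1.15) and APAP (-0.82). Its paralogue Insig1 was lower with TAA (-2.12), CCl4 (-1.33), GAL (-4.23), ConA (-2.58) and APAP (-1.03). With library totals neither passed the test with APAP (edgeR adjusted p = 0.159 for Insig2 and 0.0556 for Insig1).

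Among 12 regulators upstream of lipogenesis, calls went in both directions with every compound but GAL. Higher and lower calls were 2 and 1 with ANIT and MDA, 1 and 2 with APAP, and 3 and 5 with TAA. They were 2 and 7 with CCl4, 0 and 5 with GAL, and 1 and 3 with ConA. Of all genes, 12.8% (GAL) to 26.4% (TAA) were higher and 14.2% (ANIT) to 24.0% (TAA) lower. Counts of 1 or 2 are near or below those shares. Over the alternatives the higher count with CCl4 ran from 0 to 3 and the lower count with GAL from 1 to 8. Mlxipl (ChREBP) was lower with all 7 compounds, from -1.34 with MDA to -2.48 with TAA, although the GAL value (-2.30) lost its call without either saline mouse (edgeR adjusted p = 0.0521 and 0.0539). Pklr, the ChREBP target of glycolysis, was lower with all 7 as well, from -1.34 with CCl4 to -3.24 with GAL. Of 8 ChREBP targets, 1 was lower with ANIT, 2 with MDA, 5 with APAP, 6 with TAA and ConA, and 7 with CCl4 and GAL, where 14.2% (ANIT) to 24.0% (TAA) of all genes were. With library totals the count with CCl4 was 2, and without intravenous saline mouse 7 that with ConA was 3. Called higher was 1 target each with ANIT, TAA and ConA, where 14.0%, 26.4% and 16.8% of all genes were. Both counts with ANIT are near the shares of all genes, and differences between compounds in these counts were not tested. Fgf21, a fasting and stress hormone, rose by 7.17 with ANIT, 5.31 with MDA, 3.65 with TAA, 2.73 with APAP and 2.27 with CCl4, the last not called in a single fit over all livers (edgeR adjusted p = 0.119). Nr0b2, the bile acid-induced repressor SHP, was higher with MDA (1.09) and ANIT (1.18) and lower with TAA (-3.57), CCl4 (-2.18), GAL (-3.12) and ConA (-5.96). The ANIT value lost its call without ANIT mouse 2 or 3 (edgeR adjusted p = 0.0604 and 0.139) and with library totals (0.96, edgeR adjusted p = 0.065).

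Of 12 triglyceride genes outside the 10, 3 were higher and 1 lower with ANIT, and 5 were higher and 2 lower with MDA. With APAP and with TAA 2 were higher and 4 lower, with CCl4 2 and 5, with GAL 1 and 5, and with ConA 1 and 4. Of all genes, 12.8% (GAL) to 26.4% (TAA) were called higher and 14.2% (ANIT) to 24.0% (TAA) lower, and the counts of 1 or 2 genes are near or below those shares. With GAL the lower count was 0 without either saline mouse and 8 without GAL mouse 2, and the higher count ran from 0 to 3 over the alternatives. Gpat3, a glycerol-3-phosphate acyltransferase like Gpam, was higher with all 7 compounds, from 1.55 with MDA (edgeR adjusted p = 1.75e-05) to 3.61 with CCl4 (edgeR adjusted p = 1.92e-05). The calls with GAL and ConA were lost without either of their saline mice, and that with GAL also without GAL mouse 4, 7 or 8 (edgeR adjusted p = 0.163 and 0.194 for GAL, 0.0865 and 0.0564 for ConA). G6pdx, the first enzyme of the pentose phosphate pathway, rose with APAP (1.27), TAA (1.63) and GAL (2.69). Idh1, another source of cytosolic NADPH, fell by 1.13, 1.6 and 2.63 in the same comparisons. The 7 NADPH genes, 7 LXR targets, 8 SREBP-processing genes and 13 insulin-signalling genes gave the counts shown in the plot of called genes by list.

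**Figure D5:**
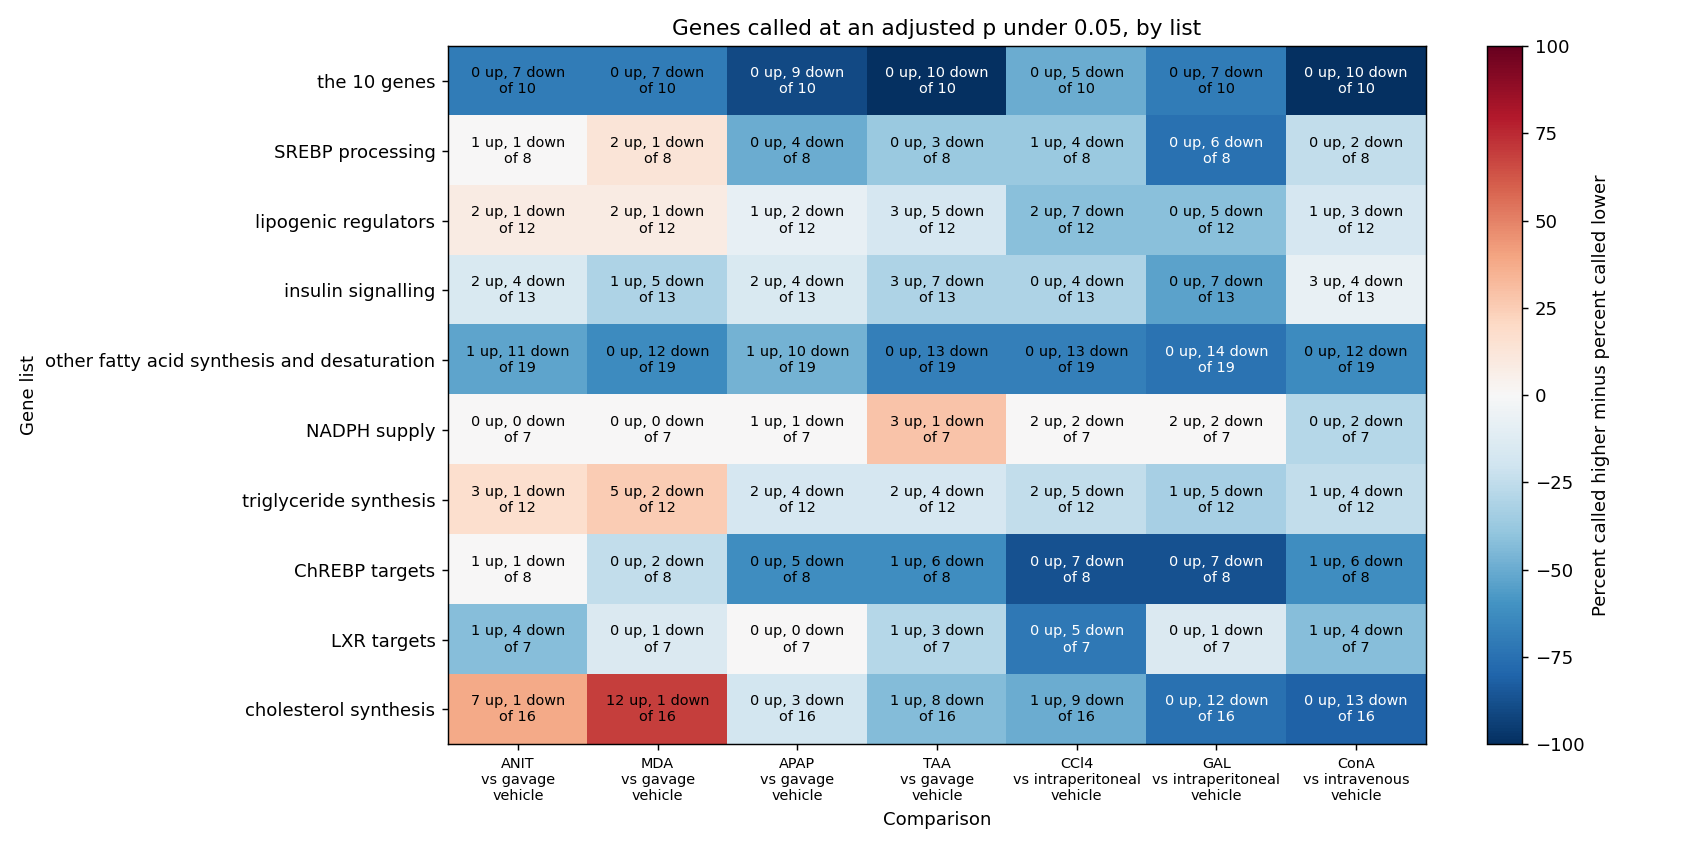
Counts of genes called higher and lower (edgeR adjusted p under 0.05) in each gene list (rows) and route comparison (columns), coloured by percent higher minus percent lower of the genes tested. Cholesterol synthesis is red with ANIT and MDA and blue elsewhere, while the 10 genes and the further fatty acid synthesis genes are blue in all 7 columns.

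Over the 10 group means of log2(CPM + 1), the symbol-bearing genes most like Srebf1 among 8088 with a mean of at least 5 CPM were Cyp2d37-ps (Pearson's r 0.965), Smagp (0.955), Igfals (0.948), Hsd3b5 (0.935) and Ppt1 (0.932). Scd1 was at 0.909, rank 15, and Fasn at 0.547, rank 1150. Among the genes most like Fasn were Abcb11 (0.961), Paxx (0.956), Wdtc1 (0.951) and Pde3b (0.950), with Thrsp at 0.910, rank 72. These values describe 10 group means that share libraries across genes, and group sizes from 2 to 13 mice enter them equally.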

How the data were processed

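RNA of 57 perfused mouse livers was sequenced from stranded mRNA libraries as single-end reads, per the labels' protocols. The submitters' processing notes name Salmon 1.6.0, R 4.1.3 and GRCm39 without roles. The authors deposited estimated counts per gene, fractional and unscaled, for 54307 Ensembl IDs. Across 7922 genes with 1 transcript, longer transcripts had a lower smallest nonzero value (Spearman's rho -0.654; genes are not independent replicates). The values therefore look length-corrected, although no label says so. Of the IDs, 51482 matched a GENCODE M21 symbol. Strand use in counting is not given in the sources used here.

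Counts were rounded and tested in R 4.3.3 with edgeR 4.0.16 (TMM, filterByExpr, quasi-likelihood test, two-sided, Benjamini-Hochberg over all genes tested, called at an adjusted p under 0.05), in fits of the groups compared. The procedure was tested on simulated data. Standard errors are the log2 fold change divided by the square root of F. CPM use TMM factors over 57 livers. Alternatives were no filter, a mean of at least 5 CPM, RLE, library totals, DESeq2 1.42.0, a single fit, a replicate block, ranges of replicate numbers, and leaving out mice. Named genes are all 10 genes and, per list and comparison, at most the 3 called genes with the largest change. The genes and lists were chosen with earlier results of these data known. Labels number mice within groups and do not say whether they shared a cage or batch. P-values measure the spread between these mice. Counts and floors cover counting error only. No 2 columns were identical. Some genes that these rules name are not reported here.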

Additional observations from a re-analysis of the deposited data

Results flagged for a closer look

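In 10 of 69 checks of a gene in a group of 4 to 10 mice, the highest or lowest mouse stood apart by Dixon's criterion. Chance flags about 1 in 20 such groups, and the genes and mice are not independent. Thrsp was high in MDA mouse 8 (719 CPM, next 264), APAP mouse 1 (227 CPM, next 21.8), TAA mouse 1 (36.5 CPM, next 9.86) and GAL mouse 2 (18.5 CPM, next 3.83). Fasn was high in the same APAP mouse 1 (399 CPM, next 99.0). Srebf1 was high in the same GAL mouse 2 (88.2 CPM, next 28.2) and low in CCl4 mouse 10 (66.6 CPM, next 117). Elovl6 was high in ANIT mouse 1 (17.9 CPM, next 11.0) and in TAA mouse 1 (11.7 CPM, next 6.18). Me1 was low in ANIT mouse 1 (52.4 CPM, next 74.9).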

How the results depend on the processing

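Under the alternatives run, 0 called values of the 10 genes changed direction, and values called in neither setting changed sign 74 times, in 34 results. The following settings moved counts of called genes among the 10 by over 1.5 times. Without filter, with library totals or with the range covariate, APAP against TAA gave 0. With the range covariate ANIT against TAA gave 2. A single fit gave 1 for CCl4 against intraperitoneal vehicle, 5 for ANIT against APAP and 8 for APAP against MDA. DESeq2 gave 1 for ANIT against MDA. Without 1 mouse each, the count fell to 0 for APAP against TAA and ranged from 1 to 6 for CCl4. Within 1.5 times of the reported counts were 5 to 8 for GAL, 7 to 10 for ConA, 5 to 7 for ANIT, 6 to 7 for MDA, 9 to 10 for APAP and 10 for TAA against the route vehicle. No gavage control was left out in these fits. The replicate block gave 1 for APAP and 4 for MDA against gavage vehicle, 3 for MDA against TAA and 1 for intravenous against gavage vehicle. It gave 0 for ANIT against APAP, ANIT against TAA, APAP against MDA and APAP against TAA. Under the block Fasn was called lower with ANIT (-1.62, edgeR adjusted p = 0.0332). Equal numbers were not shown to pair mice: in no comparison with 3 or more pairs was every correlation of deviations over 0.1 (highest mean 0.138, TAA against gavage vehicle). Counts for the other gene lists moved by over 1.5 times in 289 of 2000 values. Of 200 each, 44 moved for triglyceride synthesis, 43 for lipogenic regulators, 39 for hepatocyte markers, 33 for insulin signalling and 32 for NADPH supply. For LXR targets 31 moved, for cholesterol synthesis 28, for SREBP processing 20, for the further fatty acid genes 10 and for ChREBP targets 9. With the replicate block, 0 of the further fatty acid genes and 0 ChREBP targets were called lower with APAP, and 0 cholesterol genes higher with ANIT. Values of named list genes kept the call 2267 times and lost it 150 times. The saline groups of 2 mice limit the precision of the CCl4, GAL and ConA results.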
